A study of Mus musculus with 14 samples.

Results

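CD26 cells were compared with mature fat cells (Adipocyte), both isolated by fluorescence-activated cell sorting from the dermis of the wound bed of male C57/BL6 mice aged 7 weeks, on day 5 after injury. The comparison used 4 of the 14 RNA sequencing libraries of the series, namely CD26 libraries 1 and 2 and Adipocyte libraries 1 and 2, and all 52636 genes of the count table. AdipoqTraced (2 libraries, described as GFP in the labels), from mice of the same strain, sex, age and day, belongs to the same newly deposited set. It entered the fit and is given where it shows what sets CD26 cells apart. The labels used here give neither genotypes nor sorting gates, nor how many animals stand behind a library. Whether the 2 libraries of a group come from different animals is not stated either, and the spread that the p-values measure may be technical.

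CD26 is dipeptidyl peptidase 4, a cell-surface enzyme made from Dpp4 that is used in mouse skin to sort dermal fibroblasts, the cells that lay down collagen in a healing wound. Mature dermal adipocytes hold triglyceride in a large droplet, make fatty acids from glucose, release them when hormones call for it, and secrete adipokines such as adiponectin and leptin. Dermal fat lies directly beneath the fibroblast layers of the dermis.

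Genes of interstitial matrix and matrix proteases were mostly higher in CD26 cells, as were 15 of 30 tested genes of collagen processing and 19 of 38 of chemokines and cytokines, while genes of fat cell identity, lipid synthesis and lipid droplets were mostly lower or at 0. In edgeR's quasi-likelihood test 1403 of 16010 genes were called at a Benjamini-Hochberg adjusted p under 0.05 (8.76%), with 727 higher in CD26 (4.54%) and 676 lower (4.22%). By list, 30 of 39 tested interstitial matrix genes were called higher, and 24 of 25 tested genes of fat cell identity lower. Counts of called members in every list below stand against 4.54% higher and 4.22% lower among all genes tested. Among called genes 182 were lower by more than 5 on the log2 scale and 87 higher by more than 5. These numbers use fitted changes, also for the 62 called genes at 0 counts in CD26 and the 28 at 0 in Adipocyte. Adipocyte had fewer counts outside the mitochondrial genome, as given below, so the 2 numbers cannot be set against each other. In bulk RNA, fewer cells of a type and less RNA per cell cannot be told apart. Over all genes tested, log2 fold changes had a median of 0.21, and positive values mean higher in CD26 throughout. All 1403 called genes had CD26 and Adipocyte libraries that did not overlap, as did 55.9% of the genes tested (33.1% higher in CD26 and 22.8% lower). The number of calls depended on single libraries: with 1 left out it was 451 without CD26 library 1, 413 without CD26 library 2, 479 without Adipocyte library 1 and 720 without Adipocyte library 2. In these fits the lone library is assumed to vary like the other groups. A gene given below as called between CD26 and Adipocyte, with no further remark, kept that call in each of the 17 alternative analyses that tested it. These include the 4 with a library left out. Calls between CD26 and AdipoqTraced were not followed in this way.

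**Figure D1:**
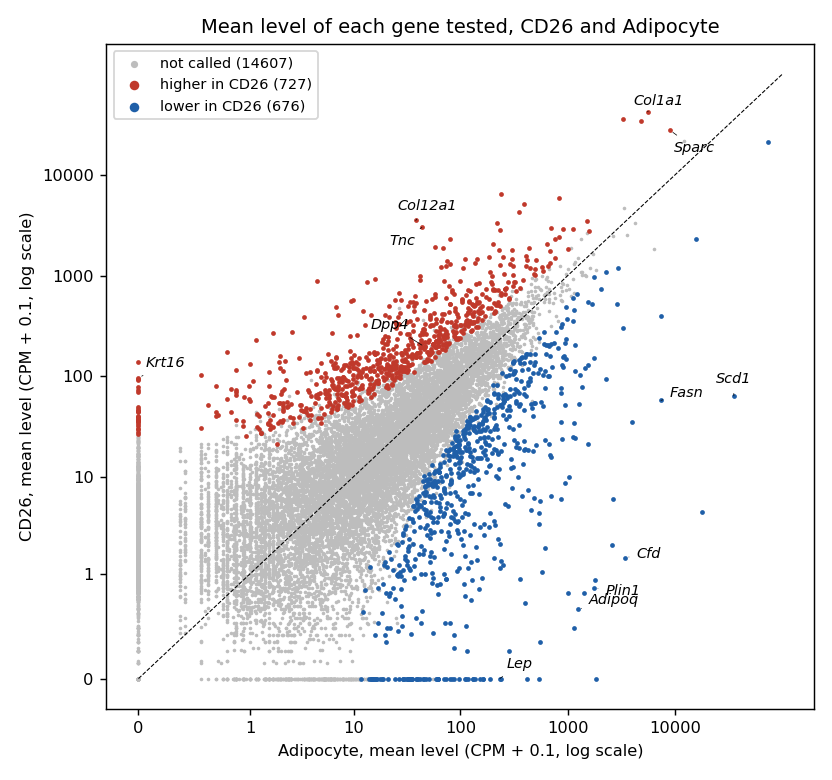
Mean level of each gene tested in CD26 (vertical axis) and Adipocyte (horizontal axis), in CPM on log axes, n = 2 libraries a group. Red points are the 727 genes called higher in CD26, blue points the 676 called lower, grey points genes not called, and the dashed line marks equal levels.

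The markers listed for each population went with the labels in part. They were chosen with earlier results of these data known, so they are no independent check of the labels. Of all genes tested, 4.54% were called higher in CD26 and 4.22% lower. All 10 adipocyte markers (Adipoq, Lep, Plin1, Cidec, Fabp4, Pparg, Cebpa, Lipe, Slc2a4 and Cfd) were called lower in CD26, and 2 of them, Lep and Slc2a4, had 0 counts in both CD26 libraries. Of 10 markers of CD26 cells, 6 were called higher in CD26 (Dpp4, Pdgfra, Thy1, Col1a1, Col3a1 and Dcn) and 4 were not called (Pi16, Cd34, Ly6a and Dpt). Not every one of these calls held with a library left out, with adjusted p-values of 0.0598 without Adipocyte library 1 for Slc2a4, of 0.118 without CD26 library 1, 0.144 without CD26 library 2 and 0.218 without Adipocyte library 2 for Cebpa, of 0.0913 without CD26 library 1, 0.103 without CD26 library 2 and 0.101 without Adipocyte library 1 for Thy1 and of 0.0793 without CD26 library 1 and 0.114 without CD26 library 2 for Dcn.

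Dpp4 (mm10 chromosome 2, 62330073 to 62412231) had 188 and 202 in CD26, against 21.2 and 72.2 CPM in Adipocyte (edgeR log2 fold change 2.03, SE 0.49, adjusted p = 0.0238, n = 2 each). Its 2 groups did not overlap, and the call depended on the setting, with adjusted p-values of 0.0604 in the older edgeR fit (legacy = TRUE), 0.0508 tested against a fold of 1.5, 0.162 without CD26 library 1, 0.204 without CD26 library 2 and 0.201 without Adipocyte library 1. AdipoqTraced libraries had 57.03 and 63.6 CPM of Dpp4, a difference from CD26 that missed the threshold (edgeR log2 fold change 1.70, adjusted p = 0.131).

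Of the other surface proteins used to sort dermal fibroblasts and fat progenitors, Pdgfra and Itgb1 were called higher in CD26. Pdgfra, the receptor for platelet-derived growth factor that marks fibroblasts, had 375 and 362 in CD26, against 1.71 and 77.03 CPM in Adipocyte (edgeR log2 fold change 3.16, SE 0.68, adjusted p = 0.0125). Its Adipocyte value came almost wholly from library 2, and adjusted p-values were 0.139 with DESeq2, 0.0748 with only the 4 libraries compared, 0.223 in the older edgeR fit (legacy = TRUE), 0.133 without CD26 library 1 and 0.142 without CD26 library 2. Itgb1, the gene of CD29, had 663 and 576 in CD26, against 148 and 197 CPM in Adipocyte (edgeR log2 fold change 1.85, SE 0.30, adjusted p = 0.00233, and 0.0607 without CD26 library 1). Cd34, a sialomucin of progenitor cells, had 165 and 247 in CD26, against 49.9 and 87.5 CPM in Adipocyte, and Cd9, a tetraspanin, had 39.1 and 53.7 in CD26, against 11.96 and 4.81 CPM in Adipocyte. Neither reached the threshold (edgeR adjusted p = 0.0543 for Cd34 and 0.0525 for Cd9). Ly6a, which encodes Sca-1, had 347 and 345 in CD26, against 71.7 and 302 CPM in Adipocyte, so that Adipocyte library 2 lay close to the CD26 libraries. Dpt, the dermatopontin of dermal matrix, had 981 and 1189.8 in CD26, against 1454 and 1281 CPM in Adipocyte and was not called either (log2 fold change -0.33, adjusted p = 0.47).

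Of 30 tested fibroblast and progenitor genes (33 in the list), 10 were called higher in CD26 and 0 lower (median log2 fold change 1.65). Pdpn, the mucin-like podoplanin of activated fibroblasts, had 406 and 364 in CD26, against 14.7 and 28.04 CPM in Adipocyte (edgeR log2 fold change 4.14, SE 0.50, adjusted p = 0.000315). Cd44, the hyaluronan receptor, had 903 and 863 in CD26, against 47.8 and 149.5 CPM in Adipocyte (edgeR log2 fold change 3.14, SE 0.43, adjusted p = 0.000765). Mfap5, a protein of elastic microfibrils, had 324 and 284 in CD26, against 20.8 and 29.5 CPM in Adipocyte (edgeR log2 fold change 3.58, SE 0.43, adjusted p = 0.000308). Both groups were well apart for Pdpn and Cd44, although Adipocyte library 2 was the higher of its pair in both. Members called higher numbered 3 and 4 without CD26 library 1 and 2, and 5 and 9 without Adipocyte library 1 and 2. The summed level of the list was 5671 and 5969 in CD26, 6090.5 and 4930.4 in AdipoqTraced and 2338 and 2969.9 CPM in Adipocyte.

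The groups differed in where their counts fell. Mitochondrial genes held 35.45% and 38.77% of them in CD26, against 79.07% and 84.79% in Adipocyte, and were set aside before scaling. The libraries held 18257752 and 17281979 counts in CD26, against 14106894 and 21407683 in Adipocyte. Without the mitochondrial genes this left 11785173 and 10581489 counts in CD26, against 2952186 and 3255546 in Adipocyte, so that a count of 0 says less in Adipocyte. Levels are CPM computed outside the mitochondrial genome, and a floor of 3 counts over both libraries stands at 0.139 CPM in CD26 and 0.465 CPM in Adipocyte. Outside the mitochondrial genome, nuclear ribosomal RNA took 2.451% and 2.219% in CD26, against 10.41% and 8.285% in Adipocyte. Libraries of a group correlated at 0.879 in CD26 and 0.831 in Adipocyte (Pearson r across genes tested, log2 CPM), against 0.647 to 0.724 between the groups. Genes are not independent replicates.

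**Figure D2:**
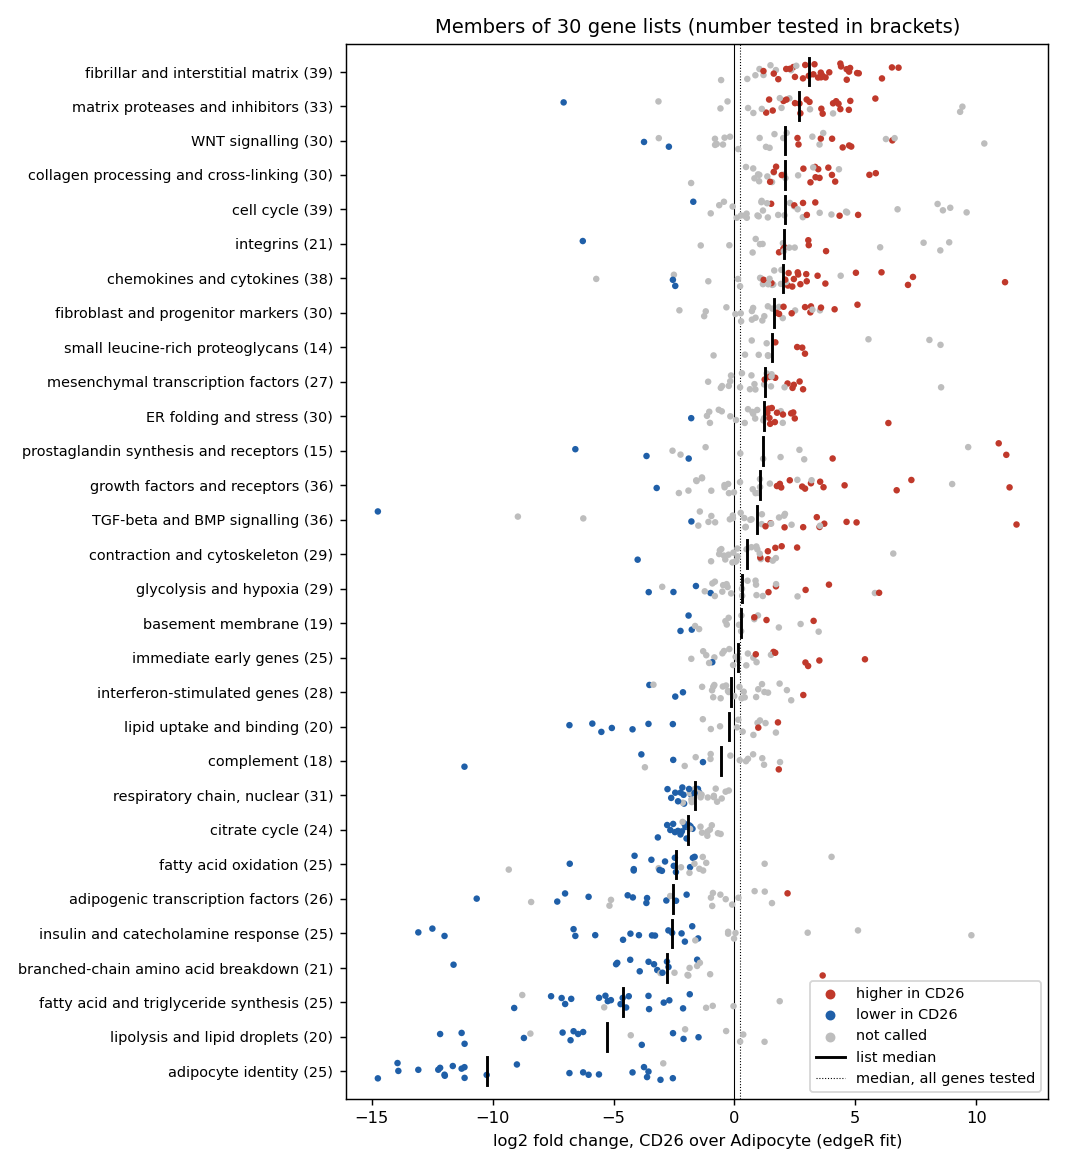
log2 fold change (CD26 over Adipocyte, edgeR fit) of each tested member of 30 gene lists, 1 point a gene, with lists ordered by their median (black bar). Red and blue points are members called higher and lower in CD26, and the dotted line marks the median of all genes tested (0.21).

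Adipokines and the other genes that identify fat cells had the lowest median of the 30 lists. Of 25 tested members, 24 were called lower in CD26 and 0 higher, against 4.22% of all genes tested called lower (median log2 fold change -10.25, or -8.80 with genes at 0 in a group set at their bound). The only tested member not called was Nrg4, a growth factor of fat cells, with 0 and 27.8 in CD26, against 104 and 103 CPM in Adipocyte. The number called lower was 19 and 20 without CD26 library 1 and 2, and 20 and 22 without Adipocyte library 1 and 2. Summed over the 26 genes of the list, the level was 693 and 870.1 in CD26, 948 and 734 in AdipoqTraced and 35084 and 21015 CPM in Adipocyte.

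Adipoq (mm10 chromosome 16, 23146536 to 23158028), which encodes adiponectin, had 0.172 and 0.599 in CD26, against 1476 and 1008 CPM in Adipocyte (edgeR log2 fold change -11.65, SE 0.84, adjusted p = 4.69e-06, n = 2 each). Cfd, the adipokine adipsin, which also acts as complement factor D, had 1.38 and 1.596 in CD26, against 4125 and 2766 CPM in Adipocyte (edgeR log2 fold change -11.17, SE 0.42, adjusted p = 3.77e-08). Lep (mm10 chromosome 6, 29060220 to 29073877), which encodes the satiety hormone leptin, had 0 counts in both CD26 libraries, against 304 and 162 CPM in Adipocyte. Set against the floor, Lep was at least 1681-fold lower in CD26 (edgeR adjusted p = 0.000147). Retn, which encodes the adipokine resistin, was at 0 as well in CD26, against 217 and 257 CPM in Adipocyte (at least 1712-fold lower, adjusted p = 2.58e-05). Adrb3, the adrenergic receptor through which catecholamines start lipolysis in mouse fat, had 0 counts in CD26, against 179.7 and 84.1 CPM in Adipocyte (at least 951-fold lower, adjusted p = 0.000628). In each of these 5 genes both Adipocyte libraries were far above both CD26 libraries. Libraries that did not overlap were common to all called genes.

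Acvr1c encodes ALK7, an activin-type receptor of fat cells. It had 0 counts in CD26, against 487 and 349 CPM in Adipocyte (at least 3016-fold lower, adjusted p = 1.04e-05), and Acvr1c overlaps the unnamed genes Gm13544 and Gm13545. Mrap, the accessory protein of the corticotropin receptor, had 0 counts in CD26, against 81.6 and 66.6 CPM in Adipocyte (at least 534-fold lower, adjusted p = 0.00116). The following genes were still detected in CD26. Pck1, the enzyme of glyceroneogenesis, had 3.53 and 0.499 in CD26, against 3670.0 and 1509 CPM in Adipocyte (edgeR log2 fold change -10.25, SE 0.78, adjusted p = 4.06e-06). Trarg1, a protein of insulin-responsive vesicles, had 1.81 and 0.299 in CD26, 90.05 and 18.4 in AdipoqTraced and 692 and 457 CPM in Adipocyte. Trarg1 was also lower in CD26 than in AdipoqTraced (edgeR log2 fold change -5.60, adjusted p = 0.0314), as were Cfd (edgeR log2 fold change -3.51, adjusted p = 0.0132) and Plin1 (edgeR log2 fold change -4.01, adjusted p = 0.0445). Calls between CD26 and AdipoqTraced, here and below, rest on every CD26 library and on the fit used. The main fit made 64 such calls. The older edgeR fit (legacy = TRUE) made 6, of which 1 was higher and 5 were lower in CD26. A replicate block gave the same numbers. Which of the genes named kept these calls was not followed.

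**Figure D3:**
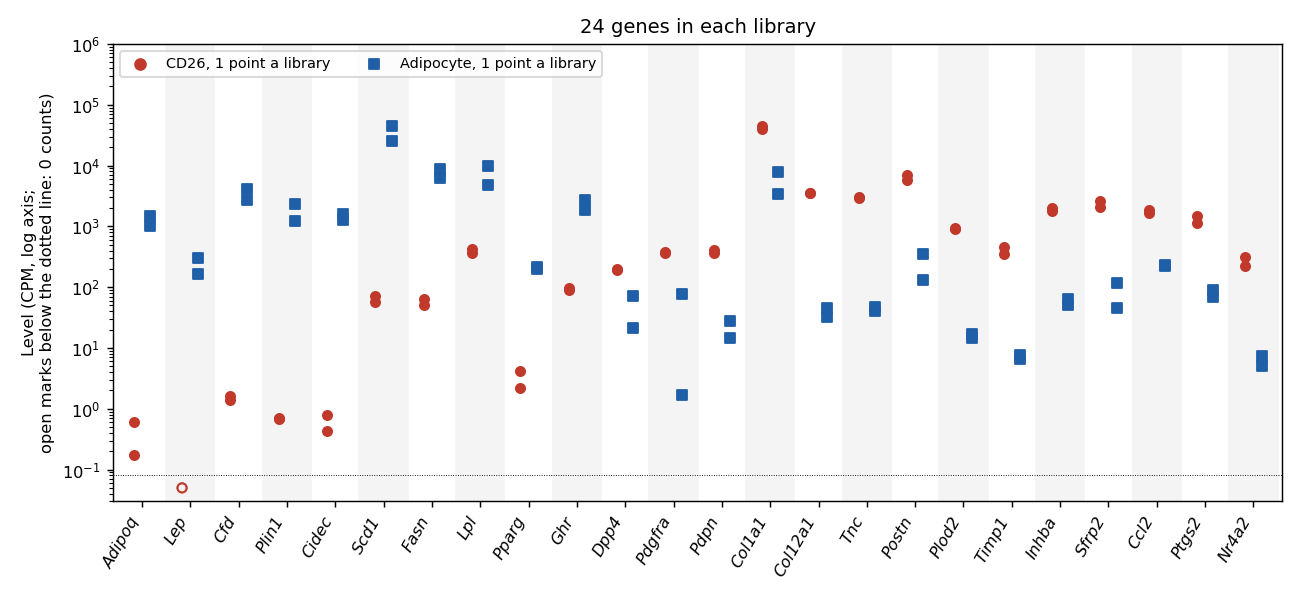
Level of 24 genes in each CD26 (red circles) and Adipocyte (blue squares) library, in CPM on a log axis, 1 point a library. For Lep the open mark stands for 0 counts in both CD26 libraries. Fat cell genes at the left (Adipoq to Ghr) are higher in both Adipocyte libraries, and the genes from Dpp4 rightwards are higher in both CD26 libraries.

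The promoters of Lep and Plin1 are shown because both genes were near or at 0 in CD26 and both hold the C/EBP motif TTGCNNAA, bound by a family of factors that drive fat cell differentiation. They were chosen after the matches were seen. Each run is the 250 bases before the start in RefSeq (GRCm38.p6), 5′ to 3′ on the strand of the gene, with matches on either strand in capitals. Lep lies at chr6:29059971-29060220 on the plus strand, with a match that begins 55 bases before the start, and Plin1 at chr7:79732777-79733026 on the minus strand, with matches that begin 187 and 58 bases before it.
Lep: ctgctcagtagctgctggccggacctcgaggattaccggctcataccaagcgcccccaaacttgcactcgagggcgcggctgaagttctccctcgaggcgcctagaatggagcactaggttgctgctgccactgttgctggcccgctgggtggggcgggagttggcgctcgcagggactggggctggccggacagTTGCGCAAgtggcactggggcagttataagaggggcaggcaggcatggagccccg
Plin1: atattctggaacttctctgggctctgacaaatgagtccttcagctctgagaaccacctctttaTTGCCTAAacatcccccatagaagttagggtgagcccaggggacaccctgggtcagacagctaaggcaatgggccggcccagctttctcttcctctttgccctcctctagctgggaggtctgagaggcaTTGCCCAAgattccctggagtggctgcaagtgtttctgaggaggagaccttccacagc

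The C/EBP motif was in 20.8% of the 24 windows of the 18 adipocyte identity genes found in the promoter table (Cidec, Lep, Plin1, Pparg and Rbp4). It was in 8.87% of the windows of genes called lower in CD26, 9.37% of those of genes called higher, 8.01% of those of all genes tested and 9.56% of all windows in the table. By list, the motif was in 25% of the windows of matrix proteases and inhibitors and 25.7% of those of chemokines and cytokines. For interstitial matrix the share was 11.8%, and for fatty acid and triglyceride synthesis 5%. A high share was thus not particular to fat cell genes. The DR1 motif, a form of the element read by the PPAR and RXR pair, was in 0 of the 24 windows and in 0.338% of all windows. Rbp4, a retinol carrier that was called lower too, had 26.3 and 20.9 in CD26, against 251 and 145 CPM in Adipocyte (edgeR log2 fold change -3.06, SE 0.47, adjusted p = 0.00173, and 0.0514 without CD26 library 1 and 0.0696 without CD26 library 2). A match describes letters in this window and is no evidence that a factor binds there.

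Enzymes that build fatty acids and triglyceride were lower in CD26 along most of the pathway. Of 25 tested members, 19 were called lower and 0 higher (median log2 fold change -4.62, or -4.48 with genes at 0 in a group set at their bound), and the summed level was 833 and 873 in CD26, against 65056 and 37881 CPM in Adipocyte. Members called lower numbered 12 and 12 without CD26 library 1 and 2, and 13 and 15 without Adipocyte library 1 and 2. Acaca, the acetyl-CoA carboxylase that commits carbon to fatty acids, had 24.2 and 24.1 in CD26, against 1396 and 955 CPM in Adipocyte (edgeR log2 fold change -5.60, SE 0.36, adjusted p = 3.93e-06). Fasn, the fatty acid synthase, had 51.1 and 64.3 in CD26, against 8622 and 6183 CPM in Adipocyte (edgeR log2 fold change -7.00, SE 0.41, adjusted p = 2.05e-06). Scd1 (mm10 chromosome 19, 44394455 to 44407879), the desaturase that makes oleate, had 57.1 and 70.9 in CD26, against 45229 and 25563 CPM in Adipocyte (edgeR log2 fold change -9.11, SE 0.48, adjusted p = 8.56e-07). Scd1 took 4.485% and 2.773% of the counts outside the mitochondrial genome in Adipocyte.

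Genes that supply carbon and reducing power to this pathway were lower in CD26 too. Slc25a1, the citrate carrier, had 10.9 and 8.88 in CD26, against 475 and 213 CPM in Adipocyte (log2 fold change -5.11). Pcx, the pyruvate carboxylase, had 1.81 and 0.698 in CD26, against 276 and 226 CPM in Adipocyte (log2 fold change -7.59). Me1, the malic enzyme that yields NADPH, had 20.1 and 27.1 in CD26, against 1236 and 547 CPM in Adipocyte (log2 fold change -5.24). For esterification, Gpd1, which makes glycerol 3-phosphate, had 7.49 and 4.39 in CD26, against 1157 and 558 CPM in Adipocyte (log2 fold change -7.15). Agpat2, which adds the second acyl chain, had 4.31 and 2.69 in CD26, against 107 and 80.4 CPM in Adipocyte (log2 fold change -4.71). Lpin1, the phosphatase of the next step, had 7.92 and 17.2 in CD26, against 373 and 239 CPM in Adipocyte (log2 fold change -4.62). Dgat2, which adds the last acyl chain, had 9.3005 and 8.08 in CD26, against 1267 and 619 CPM in Adipocyte (log2 fold change -6.75). Adjusted p-values of these 7 genes in edgeR lay between 6.97e-06 (Pcx) and 0.000761 (Agpat2). The desaturase gene Fads2 (8.18 and 1.796 in CD26, against 2.05 and 0.8496 CPM in Adipocyte) and the elongase gene Elovl5 (104 and 145 in CD26, against 202 and 260.3 CPM in Adipocyte) were not called.

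Droplet coats and lipases went the same way, with exceptions. Of 20 tested members, 13 were called lower in CD26 and 0 higher (median log2 fold change -5.28, or -4.75 with genes at 0 in a group set at their bound), and the number called lower was 11 and 11 without CD26 library 1 and 2, and 12 and 12 without Adipocyte library 1 and 2. Plin1 (mm10 chromosome 7, 79720218 to 79732903), the perilipin that guards the droplet against lipases, had 0.689 and 0.698 in CD26, against 2337 and 1208 CPM in Adipocyte (edgeR log2 fold change -11.29, SE 0.61, adjusted p = 1.72e-07). Cidec, which fuses droplets into a large one, had 0.431 and 0.798 in CD26, against 1570.1 and 1263 CPM in Adipocyte (edgeR log2 fold change -11.17, SE 0.50, adjusted p = 3.77e-08). Plin4, another perilipin of white fat cells, had 0.431 and 0 in CD26, against 1364 and 915 CPM in Adipocyte (log2 fold change -12.18). The 3 lipases that cleave triglyceride step by step were lower too. Pnpla2 (ATGL) had 12.6 and 7.38 in CD26, against 1068 and 969 CPM in Adipocyte (log2 fold change -6.66), Lipe (hormone-sensitive lipase) had 4.56 and 8.28 in CD26, against 732 and 665 CPM in Adipocyte (log2 fold change -6.78) and Mgll (monoglyceride lipase) had 1.72 and 1.197 in CD26, against 113 and 296 CPM in Adipocyte (log2 fold change -7.11). By contrast Plin2, the perilipin found in most cell types, had 201 and 198 in CD26, against 157 and 181 CPM in Adipocyte (log2 fold change 0.24, adjusted p = 0.708). Hilpda, an inhibitor of ATGL induced by hypoxia, had 196 and 135 in CD26, against 113 and 144 CPM in Adipocyte (log2 fold change 0.36, adjusted p = 0.615).

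Genes that take up fatty acids or carry them were split. Among 20 tested members, 7 were called lower in CD26 and 2 higher. Each of the 4 fits with a library left out also called 7 members lower. The 2 called higher were Lrp1, a lipoprotein receptor, and Acsl4, which activates arachidonate. Their adjusted p-values were 0.0754 with library size alone, 0.0736 in the older edgeR fit (legacy = TRUE), 0.191 tested against a fold of 1.5, 0.11 with the replicate number as a block, 0.26 without CD26 library 1, 0.296 without CD26 library 2 and 0.251 without Adipocyte library 1 for Lrp1 and 0.154 without CD26 library 1, 0.109 without CD26 library 2, 0.148 without Adipocyte library 1 and 0.1 without Adipocyte library 2 for Acsl4. Fabp4, the fatty acid carrier of fat cells, had 24.9 and 46.1 in CD26, against 4907 and 3112 CPM in Adipocyte (edgeR log2 fold change -6.83, SE 0.40, adjusted p = 2.05e-06). Lpl, the lipase that frees fatty acids from lipoproteins, had 364 and 429 in CD26, 381 and 312 in AdipoqTraced and 9882 and 4871 CPM in Adipocyte (CD26 against Adipocyte, edgeR log2 fold change -4.22, SE 0.34, adjusted p = 1.78e-05), and so stayed well above 0 in CD26. Cd36, the fatty acid translocase, had 121 and 140.3 in CD26, against 1958 and 1123 CPM in Adipocyte (log2 fold change -3.56). Slc27a1, a fatty acid transporter answering to insulin, had 9.3005 and 21.8 in CD26, against 762 and 638 CPM in Adipocyte (log2 fold change -5.51). Fabp5, the carrier of skin and macrophages, had 55.5 and 81.3 in CD26, against 26.99 and 28.9 CPM in Adipocyte and was not called (adjusted p = 0.167).

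The list of fatty acid oxidation had a median closer to 0 than the lists of synthesis and droplet genes. Of 25 tested members, 14 were called lower and 0 higher (median log2 fold change -2.42). With a library left out the number lower was 5 and 3 without CD26 library 1 and 2, and 7 and 7 without Adipocyte library 1 and 2. Hadh, a dehydrogenase of the mitochondrial pathway, had 8.96 and 13.9 in CD26, against 130.2 and 116 CPM in Adipocyte (edgeR log2 fold change -3.44, SE 0.51, adjusted p = 0.00132). Cpt1a, the carnitine transferase that admits long-chain fatty acids to mitochondria, went the other way without being called (146 and 101 in CD26, against 27.7 and 74.5 CPM in Adipocyte, log2 fold change 1.25, adjusted p = 0.168). The list and its counts also hold Hacd2, a dehydratase that lengthens long fatty acids and so is no gene of oxidation. Hacd2 had 69.4 and 37.1 in CD26, against 484 and 433 CPM in Adipocyte (edgeR log2 fold change -3.10, SE 0.38, adjusted p = 0.000344).

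Citrate cycle genes (14 of 24 called lower, 0 higher, median -1.93) and nuclear genes of the respiratory chain (14 of 31 called lower, 0 higher, median -1.65) shared this direction. Their calls rested on the libraries used. Citrate cycle genes called lower numbered 3 and 1 without CD26 library 1 and 2, and 5 and 10 without Adipocyte library 1 and 2. For the respiratory chain the number was 1 and 0 without CD26 library 1 and 2, and 1 and 8 without Adipocyte library 1 and 2. Mdh1, the cytosolic malate dehydrogenase, had 46.6 and 55.7 in CD26, against 424 and 281 CPM in Adipocyte (edgeR log2 fold change -2.78, SE 0.37, adjusted p = 0.00069). Cs, the citrate synthase, had 144 and 104 in CD26, against 886 and 555 CPM in Adipocyte (edgeR log2 fold change -2.54, SE 0.35, adjusted p = 0.00076, and 0.0535 without CD26 library 2). No gene of the respiratory list kept its call in every alternative. Atp5b, the catalytic subunit of ATP synthase, had 527 and 565 in CD26, against 1703 and 1406 CPM in Adipocyte (edgeR log2 fold change -1.51, SE 0.24, adjusted p = 0.00227, and 0.0863 without CD26 library 1 and 0.0745 without CD26 library 2). Cox4i1, a subunit of cytochrome oxidase, had 29.5 and 32.7 in CD26, against 170.5 and 121 CPM in Adipocyte (edgeR log2 fold change -2.23, SE 0.40, adjusted p = 0.00478, and 0.1 without CD26 library 1, 0.0862 without CD26 library 2 and 0.0838 without Adipocyte library 1). Pdha1, a subunit of pyruvate dehydrogenase, had 73.97 and 79.6 in CD26, against 476 and 302 CPM in Adipocyte (edgeR log2 fold change -2.34, SE 0.36, adjusted p = 0.00168, and 0.0675 without CD26 library 1 and 0.0617 without CD26 library 2). Of complex I, Ndufb9 had 31.7 and 28.4 in CD26, against 254 and 158 CPM in Adipocyte (edgeR log2 fold change -2.77, SE 0.50, adjusted p = 0.00452, and 0.0997 without CD26 library 1, 0.12 without CD26 library 2 and 0.0899 without Adipocyte library 1). Ndufa9, another subunit of it, had 23.6 and 15.5 in CD26, against 138 and 104 CPM in Adipocyte (edgeR log2 fold change -2.62, SE 0.47, adjusted p = 0.00455, and 0.058 without CD26 library 1, 0.108 without CD26 library 2 and 0.0854 without Adipocyte library 1).

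Counts of the 13 protein-coding genes of the mitochondrial genome differed in the same direction. There were 0.0346 and 0.0407 such counts per count outside the mitochondrial genome in CD26, 0.0114 and 0.0217 in AdipoqTraced and 0.346 and 0.553 in Adipocyte. Most mitochondrial counts were ribosomal RNA, with 33.22% and 36.28% of all counts in CD26, against 71.82% and 76.38% in Adipocyte. Skeletal muscle genes were also higher in Adipocyte, as given further on. The part of muscle RNA and of the mitochondrial share in these results was not tested.

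Genes that break down branched-chain amino acids, a carbon source of fat cells, were lower in CD26 in 12 of 21 tested genes and higher in 1 (median log2 fold change -2.79). Members called lower numbered 4 and 2 without CD26 library 1 and 2, and 4 and 7 without Adipocyte library 1 and 2. Aldh6a1, a dehydrogenase of valine breakdown, had 7.92 and 19.2 in CD26, against 378 and 391 CPM in Adipocyte (edgeR log2 fold change -4.85, SE 0.61, adjusted p = 0.000432). Hibch, a hydrolase of the same branch, had 12.8 and 6.08 in CD26, against 173 and 119 CPM in Adipocyte (edgeR log2 fold change -3.92, SE 0.57, adjusted p = 0.00113). The exception was Bcat1, the cytosolic aminotransferase that starts the breakdown outside mitochondria, with 70.8 and 106 in CD26, against 10.6 and 3.96 CPM in Adipocyte (edgeR log2 fold change 3.65, SE 0.63, adjusted p = 0.00334, and 0.0537 without CD26 library 2, 0.0532 without Adipocyte library 1 and 0.0954 without Adipocyte library 2). Mut, the mutase that passes propionate on to the citrate cycle, had 21.8 and 17.9 in CD26, against 173 and 141 CPM in Adipocyte (edgeR log2 fold change -2.98, SE 0.45, adjusted p = 0.00148, and 0.0544 without CD26 library 2).

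Hormone receptors and their signal chain were lower in CD26 in 17 of 25 tested genes, with 0 called higher (median log2 fold change -2.58). The number called lower was 9 and 8 without CD26 library 1 and 2, and 10 and 15 without Adipocyte library 1 and 2. Ghr, the growth hormone receptor, had 97.3 and 89.5 in CD26, against 2728 and 1836 CPM in Adipocyte (edgeR log2 fold change -4.61, SE 0.32, adjusted p = 7.08e-06). Ptger3, the prostaglandin E receptor that holds lipolysis in check, had 4.22 and 7.28 in CD26, against 748 and 346 CPM in Adipocyte (edgeR log2 fold change -6.58, SE 0.67, adjusted p = 9.71e-05). Hcar1, the lactate receptor of fat cells, had 0 counts in CD26, against 64.2 and 109 CPM in Adipocyte (at least 626-fold lower, adjusted p = 0.000525). Prkar2b, the regulatory subunit of protein kinase A in fat, had 5.86 and 4.29 in CD26, against 336 and 221 CPM in Adipocyte (log2 fold change -5.76). Gnas (898 and 961 in CD26, against 1060.0 and 1167 CPM in Adipocyte) and Adipor1 (95.4 and 140.1 in CD26, against 132 and 149 CPM in Adipocyte), which most cells express, were not called.

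Transcription factors of the fat lineage did not all fall. Of 26 tested, 11 were called lower in CD26 and 1 higher (median log2 fold change -2.54), and those called lower numbered 5 and 3 without CD26 library 1 and 2, and 6 and 5 without Adipocyte library 1 and 2. Pparg, the nuclear receptor that directs fat cell differentiation, had 2.24 and 4.19 in CD26, against 217 and 199 CPM in Adipocyte (edgeR log2 fold change -6.03, SE 0.58, adjusted p = 6.04e-05). Thrsp, a nuclear protein that goes with lipogenesis, had 0.431 and 0.798 in CD26, against 1410.2 and 593 CPM in Adipocyte (edgeR log2 fold change -10.66, SE 0.97, adjusted p = 1.76e-05). Mlxipl, the glucose-sensing factor ChREBP, had 2.76 and 0 in CD26, against 332 and 148 CPM in Adipocyte (edgeR log2 fold change -7.33, SE 0.98, adjusted p = 0.000485, and 0.116 with DESeq2 and 0.11 in the older edgeR fit (legacy = TRUE)). Cebpa, the partner of Pparg in late differentiation, had 12.7 and 10.8 in CD26, against 69.3 and 216 CPM in Adipocyte (edgeR log2 fold change -3.62, SE 0.68, adjusted p = 0.00599, and 0.118 without CD26 library 1, 0.144 without CD26 library 2 and 0.218 without Adipocyte library 2). The early factors Cebpb (114 and 101 in CD26, against 62.2 and 29.7 CPM in Adipocyte), Cebpd (42.5 and 69.8 in CD26, against 73.4 and 28.3 CPM in Adipocyte) and Ebf1 (241 and 315 in CD26, against 486 and 346 CPM in Adipocyte) were not called. Klf4, a factor of early adipogenesis and of many stem cells, was higher in CD26, with 505 and 593 in CD26, against 114 and 125 CPM in Adipocyte (edgeR log2 fold change 2.20, SE 0.30, adjusted p = 0.000761).

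Fibrillar and interstitial matrix genes were higher in CD26 for the most part. Of 39 tested, 30 were called higher in CD26 and 0 lower (median log2 fold change 3.07), against 4.54% of all genes tested called higher. The number called higher was 27 and 26 without CD26 library 1 and 2, and 26 and 29 without Adipocyte library 1 and 2. The summed level of the list was 169838 and 188415 in CD26, 163308 and 133798 in AdipoqTraced and 19947 and 32538 CPM in Adipocyte. Col1a1 took 3.917% and 4.253% of the counts outside the mitochondrial genome in CD26, more than any other gene.

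The main fibrillar collagens were abundant in both groups. Col1a1 (mm10 chromosome 11, 94936224 to 94953042) had 39755 and 44889.7 in CD26, against 3405 and 7711 CPM in Adipocyte (edgeR log2 fold change 2.93, SE 0.33, adjusted p = 0.000195). Its partner chain Col1a2 had 31690.1 and 37184 in CD26, against 3043 and 6608 CPM in Adipocyte (edgeR log2 fold change 2.83, SE 0.31, adjusted p = 0.00015). Col3a1, the type III chain of young scar, had 34744 and 37571 in CD26, against 2318 and 4253 CPM in Adipocyte (edgeR log2 fold change 3.46, SE 0.27, adjusted p = 1.56e-05). In all 3 genes Adipocyte library 2 was the higher of its pair and far below both CD26 libraries. Sparc, a collagen-binding protein of the extracellular space, had 25996 and 29522 in CD26, against 8054 and 9929.9 CPM in Adipocyte, the smallest difference of these 4 (edgeR log2 fold change 1.63, SE 0.18, adjusted p = 0.000216). The type V chains that start fibrils followed, with 3009.7 and 3628 in CD26, against 205 and 232 CPM in Adipocyte for Col5a1 (log2 fold change 3.92) and 1559.6 and 1523 in CD26, against 162 and 204 CPM in Adipocyte for Col5a2 (log2 fold change 3.07).

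Other matrix proteins of wounds and of growing connective tissue included those with the widest differences of the list. Col12a1 (mm10 chromosome 9, 79598991 to 79718831), a collagen that bridges fibrils, had 3508 and 3552 in CD26, against 31.8 and 44.7 CPM in Adipocyte (edgeR log2 fold change 6.52, SE 0.28, adjusted p = 1.72e-07). Tnc, tenascin C, which appears in healing wounds, had 3044 and 2982 in CD26, against 40.7 and 46.7 CPM in Adipocyte (edgeR log2 fold change 6.10, SE 0.27, adjusted p = 1.72e-07). AdipoqTraced had 5191 and 5407 CPM of Col12a1 and 4588 and 4193 CPM of Tnc, above the CD26 libraries. Neither gene was called between CD26 and AdipoqTraced. Postn, periostin, had 5879 and 6989 in CD26, against 131 and 347 CPM in Adipocyte (edgeR log2 fold change 4.74, SE 0.39, adjusted p = 1.86e-05). The hyaluronan synthase Has1 had 252 and 301 in CD26, against 4.099 and 1.13 CPM in Adipocyte (log2 fold change 6.79). Vcan, the proteoglycan versican that binds hyaluronan, had 2012 and 1785 in CD26, against 44.1 and 92.04 CPM in Adipocyte (log2 fold change 4.78). Cthrc1, a secreted protein of injured tissue, had 386 and 508 in CD26, against 9.22 and 15.6 CPM in Adipocyte (log2 fold change 5.14). Fn1, fibronectin, had 4609 and 4048 in CD26, against 262 and 440.4 CPM in Adipocyte (log2 fold change 3.62). As in every called gene, the CD26 and Adipocyte libraries of these 7 genes did not overlap. Of all genes tested, 33.1% had no overlap with CD26 higher. Eln, elastin, had 52.9 and 83.99 in CD26, against 29.7 and 44.5 CPM in Adipocyte and was not called.

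The chains of type VI collagen, which forms beaded microfilaments, had smaller log2 fold changes than the type I chains, and Col6a3 also differed between CD26 and AdipoqTraced. Col6a3 had 1104 and 1442 in CD26, 4679 and 3715 in AdipoqTraced and 239.8 and 231 CPM in Adipocyte. It was higher in CD26 than in Adipocyte (edgeR log2 fold change 2.43, SE 0.25, adjusted p = 0.000108) and lower in CD26 than in AdipoqTraced (edgeR log2 fold change -1.72, adjusted p = 0.0161). Col6a1 had 605 and 679 in CD26, against 105 and 121 CPM in Adipocyte (log2 fold change 2.50). Col6a2 had 947 and 1058 in CD26, against 206 and 190.0 CPM in Adipocyte (log2 fold change 2.34). Both were called against Adipocyte and not against AdipoqTraced (adjusted p = 0.0728 for Col6a1 and 0.111 for Col6a2).

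Basement membrane genes, which surround each fat cell and each vessel, had no common direction. Among 19 tested, 3 were called higher in CD26 and 3 lower (median log2 fold change 0.28), and no call held in all 4 fits with a library left out. Those called lower numbered 0 and 0 without CD26 library 1 and 2, and 0 and 3 without Adipocyte library 1 and 2. Those called higher numbered 0 and 0 without CD26 library 1 and 2, and 1 and 2 without Adipocyte library 1 and 2. The members called higher were Lama2, Nid1 and Hspg2, and those called lower Col4a1, Col4a2 and Col15a1. Col4a1, a chain of the type IV network, had 105 and 131 in CD26, 847 and 437 in AdipoqTraced and 772 and 339 CPM in Adipocyte (CD26 against Adipocyte, edgeR log2 fold change -2.23, SE 0.43, adjusted p = 0.00706, and 0.0802 with all 14 libraries in the fit, 0.163 without CD26 library 1, 0.125 without CD26 library 2 and 0.113 without Adipocyte library 1). CD26 was also lower than AdipoqTraced (edgeR log2 fold change -2.44, adjusted p = 0.0422). Lamc1, a laminin chain found in most basement membranes, had 627 and 655 in CD26, against 468 and 589 CPM in Adipocyte and was not called (adjusted p = 0.578).

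Small leucine-rich proteoglycans, which space collagen fibrils, were called higher in CD26 in 4 of 14 tested members and lower in 0 (median log2 fold change 1.54, or 1.39 with genes at 0 in a group set at their bound), and the number was 3 and 3 without CD26 library 1 and 2, and 4 and 4 without Adipocyte library 1 and 2. Bgn, biglycan, had 5342 and 6338 in CD26, against 675 and 996 CPM in Adipocyte (edgeR log2 fold change 2.80, SE 0.25, adjusted p = 3.35e-05). Lum, lumican, had 1345 and 1694 in CD26, against 171 and 329.9 CPM in Adipocyte (edgeR log2 fold change 2.59, SE 0.32, adjusted p = 0.000397). Aspn, asporin, had 373 and 486 in CD26, against 41.7 and 70.8 CPM in Adipocyte (edgeR log2 fold change 2.92, SE 0.35, adjusted p = 0.000322). Ogn (283 and 353 in CD26, against 182 and 206 CPM in Adipocyte) and Prelp (835 and 1046 in CD26, against 374 and 562 CPM in Adipocyte) were not called.

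Enzymes that fold, hydroxylate and cross-link collagen were called higher in 15 of 30 tested members and lower in 0 (median log2 fold change 2.08). Members called higher numbered 8 and 8 without CD26 library 1 and 2, and 12 and 14 without Adipocyte library 1 and 2. Plod2, the lysyl hydroxylase that prepares the stable cross-links of scar, had 891 and 945 in CD26, against 14.7 and 16.99 CPM in Adipocyte (edgeR log2 fold change 5.85, SE 0.36, adjusted p = 3.14e-06). Lox, lysyl oxidase, had 2258 and 1846 in CD26, against 121 and 283 CPM in Adipocyte (edgeR log2 fold change 3.34, SE 0.36, adjusted p = 0.00015). Loxl2, its relative, had 1211 and 1217 in CD26, against 24.3 and 108 CPM in Adipocyte (edgeR log2 fold change 4.17, SE 0.48, adjusted p = 0.000235). P4ha1, a prolyl hydroxylase subunit, had 179 and 187 in CD26, against 29.04 and 13.3 CPM in Adipocyte (log2 fold change 3.14). Serpinh1, the collagen chaperone HSP47, had 860.5 and 869 in CD26, against 263 and 296 CPM in Adipocyte (log2 fold change 1.63). Ppib (70.1 and 76.8 in CD26, against 39.3 and 46.2 CPM in Adipocyte) and Pcolce (271 and 216 in CD26, against 105 and 134 CPM in Adipocyte), which also serve collagen, were not called.

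Matrix proteases and their inhibitors were called higher more often than lower. Of 33 tested, 19 were called higher in CD26 and 1 lower (median log2 fold change 2.69), and members called higher numbered 11 and 10 without CD26 library 1 and 2, and 12 and 15 without Adipocyte library 1 and 2. Timp1, an inhibitor of metalloproteases, had 453 and 358 in CD26, against 6.49 and 7.65 CPM in Adipocyte (edgeR log2 fold change 5.83, SE 0.45, adjusted p = 1.07e-05). Adamts1, which cuts versican, had 1150.4 and 1361 in CD26, against 64.9 and 82.98 CPM in Adipocyte (edgeR log2 fold change 4.08, SE 0.31, adjusted p = 1.09e-05). Plat, tissue plasminogen activator, had 367 and 439 in CD26, against 6.83 and 22.4 CPM in Adipocyte (edgeR log2 fold change 4.73, SE 0.45, adjusted p = 6.57e-05). Mmp3, stromelysin, had 249.8 and 412 in CD26, against 17.4 and 34.3 CPM in Adipocyte (edgeR log2 fold change 3.65, SE 0.45, adjusted p = 0.000382). Mmp13, a collagenase, had 107 and 199.7 in CD26, against 0 and 13.6 CPM in Adipocyte (edgeR log2 fold change 4.38, SE 0.76, adjusted p = 0.00322, and 0.0934 with DESeq2, 0.0537 in the older edgeR fit (legacy = TRUE) and 0.0696 without CD26 library 2). The member called lower was Timp4, an inhibitor made by fat cells, with 0 and 0.399 in CD26, against 15.03 and 37.4 CPM in Adipocyte (edgeR log2 fold change -7.07, SE 1.596, adjusted p = 0.0203, and 0.0732 in the older edgeR fit (legacy = TRUE), 0.173 without CD26 library 1, 0.146 without CD26 library 2, 0.112 without Adipocyte library 1 and 0.31 without Adipocyte library 2). Mmp12, the elastase of macrophages, had 88.6 and 87.3 in CD26, against 26.99 and 73.3 CPM in Adipocyte and was not called.

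Promoters of Mmp3 and Mmp13 are shown because they hold the AP-1 motif TGANTCA, read by Fos and Jun proteins, close to the start. They too were chosen after the matches were seen. Both runs are the 250 bases before the start in RefSeq (GRCm38.p6), on the plus strand, with matches to the AP-1 or C/EBP motif on either strand in capitals. Mmp3 lies at chr9:7445572-7445821, with AP-1 beginning 46 and C/EBP 148 bases before the start, and Mmp13 at chr9:7272264-7272513, with AP-1 beginning 35 bases before it.
Mmp3: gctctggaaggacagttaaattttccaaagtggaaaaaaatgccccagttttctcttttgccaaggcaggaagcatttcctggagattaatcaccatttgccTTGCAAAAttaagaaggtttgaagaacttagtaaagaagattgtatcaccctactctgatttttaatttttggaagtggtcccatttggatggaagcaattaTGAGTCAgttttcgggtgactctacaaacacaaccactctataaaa
Mmp13: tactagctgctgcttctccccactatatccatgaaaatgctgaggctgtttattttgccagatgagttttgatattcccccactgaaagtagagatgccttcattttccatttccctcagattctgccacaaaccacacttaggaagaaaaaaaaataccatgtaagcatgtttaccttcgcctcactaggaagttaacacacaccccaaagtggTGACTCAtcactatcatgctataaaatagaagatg

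The AP-1 motif was in 8.76% of the windows of genes called higher in CD26, 5.5% of those called lower, 5.2% of those of all genes tested and 6.75% of all windows in the table. By list, the share was 20% in chemokines and cytokines, 8.33% in adipocyte identity, 5.88% in interstitial matrix and 0% in fatty acid and triglyceride synthesis. Of 33 genes in the protease list 20 were found in the promoter table. The motif was in 6 of their 24 windows (25%), those of Adam19, Mmp10, Mmp12, Mmp13, Mmp3 and Plaur. Of these 6 genes, Mmp10 and Mmp12 were not called, and the other 4 were called higher in CD26 (Plaur with adjusted p-values of 0.0634 without Adipocyte library 1 and 0.0616 without Adipocyte library 2).

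TGF-beta and BMP genes were called among ligands, receptors and antagonists. Of 36 tested genes, 10 were called higher in CD26 and 2 lower (median log2 fold change 0.92), and those called higher numbered 6 and 6 without CD26 library 1 and 2, and 6 and 8 without Adipocyte library 1 and 2. Among ligands, Inhba (mm10 chromosome 13, 16011851 to 16031621), the activin A subunit, had 1813 and 1996 in CD26, against 64.9 and 50.4 CPM in Adipocyte (edgeR log2 fold change 5.05, SE 0.31, adjusted p = 2.81e-06). Tgfb2 had 166 and 177 in CD26, against 6.15 and 24.9 CPM in Adipocyte (edgeR log2 fold change 3.41, SE 0.54, adjusted p = 0.00208). Tgfb1, the ligand most studied in scarring, had 91.3 and 67.3 in CD26, against 51.6 and 22.7 CPM in Adipocyte and was not called (adjusted p = 0.244). Among receptors, Tgfbr2 had 868 and 789.5 in CD26, against 153 and 239.9 CPM in Adipocyte (log2 fold change 2.07), while the receptor gene Acvr1c, given above, was at 0 in CD26. Fst, follistatin, which traps activin, had 125 and 106 in CD26, against 3.42 and 5.66 CPM in Adipocyte (log2 fold change 4.64). Fstl1, a follistatin-like secreted protein, had 5341 and 4886 in CD26, against 220.3 and 555 CPM in Adipocyte (log2 fold change 3.72). The target gene Id3 was the other member called lower, with 50.9 and 79.5 in CD26, against 225 and 222 CPM in Adipocyte (edgeR log2 fold change -1.78, SE 0.38, adjusted p = 0.0115, and 0.18 without CD26 library 1, 0.0776 without CD26 library 2, 0.0861 without Adipocyte library 1 and 0.0698 without Adipocyte library 2).

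WNT genes went in both directions. Of 30 tested, 8 were called higher in CD26, the secreted antagonists Sfrp1, Sfrp2 and Sfrp4 among them, and 2 were called lower, Fzd4 and Lrp5 (median log2 fold change 2.09, or 1.66 with genes at 0 in a group set at their bound). Members called higher numbered 6 and 7 without CD26 library 1 and 2, and 4 and 4 without Adipocyte library 1 and 2. Sfrp2, a secreted frizzled-related protein of dermal fibroblasts, had 2048 and 2610.0 in CD26, 669 and 521 in AdipoqTraced and 46.1 and 115 CPM in Adipocyte. It was higher in CD26 than in Adipocyte (edgeR log2 fold change 4.83, SE 0.40, adjusted p = 2.25e-05) and than in AdipoqTraced (edgeR log2 fold change 1.97, adjusted p = 0.0392). Sfrp1, its relative, had 249 and 327 in CD26, against 43.4 and 48.1 CPM in Adipocyte (edgeR log2 fold change 2.65, SE 0.39, adjusted p = 0.00118). Among receptors, Fzd1 was higher in CD26, with 205 and 309 in CD26, against 41.7 and 42.5 CPM in Adipocyte (log2 fold change 2.61), and Fzd4 lower, with 18.5 and 17.3 in CD26, against 261 and 219 CPM in Adipocyte (log2 fold change -3.74). Sfrp4 had an adjusted p of 0.0784 without Adipocyte library 1 and 0.051 without Adipocyte library 2, and Lrp5 one of 0.0826 without CD26 library 1, 0.175 without CD26 library 2 and 0.242 without Adipocyte library 1.

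Growth factors and receptors were called higher in 13 of 36 tested members and lower in 1 (median log2 fold change 1.06). Members called higher numbered 3 and 2 without CD26 library 1 and 2, and 5 and 6 without Adipocyte library 1 and 2. The member called lower was Fgf2, with 20.7 and 0.1995 in CD26, against 114 and 88.6 CPM in Adipocyte (edgeR log2 fold change -3.22, SE 0.86, adjusted p = 0.0395, and 0.053 with DESeq2, 0.0635 without a filter on low counts, 0.0505 with only the 4 libraries compared, 0.226 in the older edgeR fit (legacy = TRUE), 0.0587 tested against a fold of 1.5, 0.0874 with the replicate number as a block, 0.208 without CD26 library 2, 0.269 without Adipocyte library 1 and 0.147 without Adipocyte library 2). Ereg, an EGF-family ligand, kept its call throughout, with 430.1 and 346 in CD26, against 0 and 6.797 CPM in Adipocyte (edgeR log2 fold change 6.71, SE 0.72, adjusted p = 8.14e-05). Egfr, the receptor of that family, had 646 and 781 in CD26, against 192 and 229 CPM in Adipocyte (edgeR log2 fold change 1.76, SE 0.28, adjusted p = 0.00228, and 0.0674 without CD26 library 2). Igf1 (573 and 703 in CD26, against 919 and 780.2 CPM in Adipocyte) and Vegfa (539 and 526 in CD26, against 325 and 257 CPM in Adipocyte) were not called. Angptl2, an angiopoietin-like secreted protein, had 236 and 249 in CD26, against 67.3 and 59.8 CPM in Adipocyte (edgeR log2 fold change 1.93, SE 0.34, adjusted p = 0.00406, and 0.0565 without CD26 library 1 and 0.0675 without CD26 library 2).

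Chemokines and cytokines were called higher in 19 of 38 tested members and lower in 2 (median log2 fold change 2.02). Members called higher numbered 12 and 12 without CD26 library 1 and 2, and 11 and 14 without Adipocyte library 1 and 2. Ccl2, which draws monocytes, had 1691 and 1893 in CD26, against 231 and 226 CPM in Adipocyte (edgeR log2 fold change 2.97, SE 0.27, adjusted p = 5.3e-05). Ccl7, a related ligand, had 605 and 579.7 in CD26, against 59.1 and 50.4 CPM in Adipocyte (edgeR log2 fold change 3.44, SE 0.34, adjusted p = 8.46e-05). For neutrophils, Cxcl5 had 327 and 214 in CD26, against 0 and 3.398 CPM in Adipocyte (log2 fold change 7.18). Cxcl3 had 179.9 and 126 in CD26, against 10.6 and 11.9 CPM in Adipocyte (log2 fold change 3.76). Il33, the alarmin of stromal nuclei, had 430.5 and 402 in CD26, against 60.8 and 74.5 CPM in Adipocyte (log2 fold change 2.62), and its receptor Il1rl1 had 428 and 552 in CD26, against 1.71 and 11.9 CPM in Adipocyte (log2 fold change 6.08). Saa3, an acute-phase protein, had 329 and 264 in CD26, against 57.05 and 33.4 CPM in Adipocyte (log2 fold change 2.73). Adjusted p-values of these 5 genes lay between 2.45e-05 (Il1rl1) and 0.00124 (Saa3). The T cell attractants Cxcl9 (32.6 and 60.2 in CD26, against 294 and 247 CPM in Adipocyte) and Cxcl10 (103 and 120.5 in CD26, against 721 and 499.9 CPM in Adipocyte) were the 2 members called lower. Their calls were lost in part, with adjusted p-values of 0.152 without CD26 library 1, 0.0676 without CD26 library 2 and 0.0751 without Adipocyte library 1 for Cxcl9 and of 0.125 without CD26 library 1, 0.107 without CD26 library 2 and 0.057 without Adipocyte library 1 for Cxcl10.

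Some markers of immune cells were called higher in CD26 as well. The summed level of 26 macrophage and monocyte genes was 8803 and 6446 in CD26, against 2042 and 4246 CPM in Adipocyte. Among them 6 of 26 were called higher and 0 lower in CD26, against 4.54% and 4.22% of all genes tested. For 15 neutrophil genes the summed level was 892 and 772 in CD26, against 174 and 192 CPM in Adipocyte. Of 10 tested, 3 were called higher, while Ly6g, Camp and Ngp had 0 counts in all 4 libraries. Cd14 had 386 and 348 in CD26, against 46.8 and 56.9 CPM in Adipocyte (edgeR log2 fold change 2.82, SE 0.39, adjusted p = 0.000858). Ptprc, the pan-leukocyte antigen CD45, had 288 and 329 in CD26, against 50.2 and 78.2 CPM in Adipocyte (edgeR log2 fold change 2.25, SE 0.37, adjusted p = 0.00247, and 0.0586 without CD26 library 2). The myeloid genes Itgam and C5ar1 were not called (edgeR adjusted p = 0.408 and 0.732). Their levels differed widely between the CD26 libraries, as given under other observations. The part of immune cells in the cytokine results was not tested.

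Prostaglandin genes went in both directions. Ptgs2, cyclooxygenase 2, had 1488 and 1145 in CD26, against 88.8 and 69.4 CPM in Adipocyte (edgeR log2 fold change 4.06, SE 0.31, adjusted p = 1.16e-05), while the receptor gene Ptger3, given above, was lower. Of 15 tested genes of the pathway, 3 were called higher and 3 lower (median log2 fold change 1.19). Those called higher numbered 1 and 1 without CD26 library 1 and 2, and 1 and 1 without Adipocyte library 1 and 2. Hpgd, which breaks prostaglandins down, had 19.3 and 29.1 in CD26, against 87.1 and 91.8 CPM in Adipocyte (edgeR log2 fold change -1.89, SE 0.49, adjusted p = 0.0322, and 0.0542 without a filter on low counts, 0.0537 in the older edgeR fit (legacy = TRUE), 0.0683 tested against a fold of 1.5, 0.0672 with the replicate number as a block, 0.261 without CD26 library 1, 0.159 without CD26 library 2, 0.211 without Adipocyte library 1 and 0.226 without Adipocyte library 2). Ptges, the inducible prostaglandin E synthase, had 74.4 and 6.68 in CD26, against 155 and 229 CPM in Adipocyte and was not called (adjusted p = 0.0897). Ptgfr, the prostaglandin F receptor, had 7.92 and 6.18 in CD26, against 137 and 42.8 CPM in Adipocyte (edgeR log2 fold change -3.64, SE 0.77, adjusted p = 0.0118, and 0.147 without CD26 library 1, 0.185 without CD26 library 2 and 0.366 without Adipocyte library 1).

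Complement genes were called lower in CD26 in 4 of 18 tested members and higher in 1, against 4.22% and 4.54% of all genes tested. The list median was -0.58 (log2 fold change). The number lower was 3 and 3 without CD26 library 1 and 2, and 4 and 4 without Adipocyte library 1 and 2. Besides Cfd, C4b had 157 and 159 in CD26, against 959 and 871 CPM in Adipocyte (edgeR log2 fold change -2.53, SE 0.29, adjusted p = 0.000216). Clu, clusterin, had 6.98 and 9.28 in CD26, against 106 and 127 CPM in Adipocyte (edgeR log2 fold change -3.85, SE 0.53, adjusted p = 0.000565). C3, on which all routes of complement meet, had 1233 and 1145 in CD26, against 3431 and 2439 CPM in Adipocyte (edgeR log2 fold change -1.30, SE 0.24, adjusted p = 0.00555, and 0.114 without CD26 library 1 and 0.162 without CD26 library 2). The member called higher was C1s1, a C1s protease gene, which had 427 and 428 in CD26, against 71.7 and 166 CPM in Adipocyte (edgeR log2 fold change 1.83, SE 0.38, adjusted p = 0.0108, and 0.12 without CD26 library 1, 0.131 without CD26 library 2 and 0.0733 without Adipocyte library 1). Interferon-stimulated genes had 1 of 28 called higher and 3 lower (median log2 fold change -0.12), and the number lower was 1 and 1 without CD26 library 1 and 2, and 2 and 3 without Adipocyte library 1 and 2. Of this list 3.57% were called higher and 10.7% lower, against 4.54% and 4.22% of all genes tested. Irf1, a factor induced by interferon gamma, had 53.7 and 48.2 in CD26, against 578 and 592 CPM in Adipocyte (edgeR log2 fold change -3.52, SE 0.35, adjusted p = 7.89e-05). Ifi27, a gene induced by type I interferon, had 50.98 and 72.2 in CD26, against 292 and 247 CPM in Adipocyte (edgeR log2 fold change -2.13, SE 0.38, adjusted p = 0.00418, and 0.113 without CD26 library 1 and 0.0621 without CD26 library 2). The member called higher was Rsad2, the antiviral enzyme viperin, which had 83.3 and 118 in CD26, against 0 and 26.1 CPM in Adipocyte (edgeR log2 fold change 2.85, SE 0.80, adjusted p = 0.0491, and 0.395 with DESeq2, 0.0738 with library size alone, 0.066 without a filter on low counts, 0.239 in the older edgeR fit (legacy = TRUE), 0.0754 tested against a fold of 1.5, 0.0512 with the replicate number as a block, 0.183 without CD26 library 1, 0.325 without CD26 library 2, 0.388 without Adipocyte library 1 and 0.0571 without Adipocyte library 2).

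Contractile and cytoskeletal genes were called higher in 6 of 29 tested members and lower in 1, against 4.54% and 4.22% of all genes tested. The list median was 0.50 (log2 fold change). Those called higher numbered 2 and 2 without CD26 library 1 and 2, and 4 and 5 without Adipocyte library 1 and 2. Flna, filamin A, which cross-links actin, had 314 and 331 in CD26, against 53.3 and 53.5 CPM in Adipocyte (edgeR log2 fold change 2.59, SE 0.32, adjusted p = 0.000345). Acta2, the smooth muscle actin of myofibroblasts, had 107 and 118 in CD26, 874 and 701 in AdipoqTraced and 14.7 and 41.9 CPM in Adipocyte. It was higher in CD26 than in Adipocyte (edgeR log2 fold change 1.95, SE 0.43, adjusted p = 0.0144), a call with adjusted p-values of 0.11 without CD26 library 1, 0.151 without CD26 library 2 and 0.146 without Adipocyte library 1, and lower in CD26 than in AdipoqTraced (edgeR log2 fold change -2.81, adjusted p = 0.0138). Myl9, a myosin light chain, had 12.7 and 4.29 in CD26, 103 and 90.98 in AdipoqTraced and 8.54 and 16.1 CPM in Adipocyte. It was not called against Adipocyte and was lower in CD26 than in AdipoqTraced (edgeR log2 fold change -3.49, adjusted p = 0.035), and so was Csrp1, a LIM protein of smooth muscle (89.6 and 94.96 in CD26, against 476 and 368 CPM in AdipoqTraced, edgeR log2 fold change -2.19, adjusted p = 0.0216). Tpm4, a tropomyosin, had 2137 and 2010.5 in CD26, against 495 and 786 CPM in Adipocyte (edgeR log2 fold change 1.69, SE 0.26, adjusted p = 0.00172, and 0.0552 without CD26 library 1). Vim, the intermediate filament vimentin of mesenchymal cells, had 2727 and 3130.0 in CD26, against 1055 and 1191 CPM in Adipocyte (edgeR log2 fold change 1.38, SE 0.21, adjusted p = 0.0018, and 0.0696 without CD26 library 2). The member called lower was Des, the intermediate filament desmin of muscle, which had 4.05 and 2.89 in CD26, against 26.3 and 84.4 CPM in Adipocyte (edgeR log2 fold change -4.01, SE 1.02, adjusted p = 0.0305, and 0.0537 with DESeq2, 0.22 in the older edgeR fit (legacy = TRUE), 0.0671 with the replicate number as a block, 0.236 without CD26 library 1, 0.3 without CD26 library 2, 0.0623 without Adipocyte library 1 and 0.54 without Adipocyte library 2).

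Integrins, the receptors for matrix, were called higher in 6 of 21 tested members and lower in 1 (median log2 fold change 2.04, or 2.02 with genes at 0 in a group set at their bound). The number higher was 2 and 2 without CD26 library 1 and 2, and 2 and 4 without Adipocyte library 1 and 2. Itga5, which pairs with Itgb1 to bind fibronectin, had 248 and 446 in CD26, against 15.4 and 33.7 CPM in Adipocyte (edgeR log2 fold change 3.79, SE 0.53, adjusted p = 0.000868). Itga7, a laminin receptor of muscle and of vessel walls, had 1.29 and 0.1995 in CD26, 37.7 and 36.2 in AdipoqTraced and 42.02 and 80.1 CPM in Adipocyte. It was lower in CD26 than in Adipocyte (edgeR log2 fold change -6.27, SE 0.89, adjusted p = 0.000572) and than in AdipoqTraced (edgeR log2 fold change -5.53, adjusted p = 0.0221).

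Cell cycle genes were called higher in 7 of 39 tested members and lower in 1, against 4.54% and 4.22% of all genes tested. The list median was 2.07 (log2 fold change), or 1.81 with genes at 0 in a group set at their bound. Those called higher numbered 2 and 2 without CD26 library 1 and 2, and 3 and 2 without Adipocyte library 1 and 2. Mki67, a marker of cycling cells, had 352 and 317 in CD26, against 47.8 and 45.9 CPM in Adipocyte (edgeR log2 fold change 2.84, SE 0.34, adjusted p = 0.000335). Ccnd1, a cyclin of early G1, had 45.04 and 31.4 in CD26, against 22.5 and 56.6 CPM in Adipocyte and was not called. Top2a, the topoisomerase of dividing cells, had 161 and 138 in CD26, against 34.5 and 4.81 CPM in Adipocyte (edgeR log2 fold change 2.995, SE 0.59, adjusted p = 0.00776, and 0.102 without CD26 library 1, 0.0822 without CD26 library 2 and 0.0727 without Adipocyte library 2). Cenpe, a motor protein of the kinetochore, had 91.02 and 60.1 in CD26, against 2.05 and 2.27 CPM in Adipocyte (edgeR log2 fold change 5.12, SE 0.78, adjusted p = 0.000972, and 0.0768 without Adipocyte library 1 and 0.0704 without Adipocyte library 2). The member called lower was Ccnd2, another cyclin of G1, which had 213 and 193 in CD26, against 728 and 592 CPM in Adipocyte (edgeR log2 fold change -1.70, SE 0.43, adjusted p = 0.0304, and 0.0508 without a filter on low counts, 0.0653 in the older edgeR fit (legacy = TRUE), 0.0715 tested against a fold of 1.5, 0.074 with the replicate number as a block, 0.24 without CD26 library 1, 0.327 without CD26 library 2, 0.214 without Adipocyte library 1 and 0.092 without Adipocyte library 2).

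Transcription factors of mesenchymal cells were called higher in 8 of 27 tested members and lower in 0 (median log2 fold change 1.25). The number higher was 4 and 3 without CD26 library 1 and 2, and 4 and 5 without Adipocyte library 1 and 2. Runx1 had 536 and 566 in CD26, against 111 and 97.99 CPM in Adipocyte (edgeR log2 fold change 2.40, SE 0.31, adjusted p = 0.000509). Creb3l1, a membrane-bound factor that drives collagen genes, had 538 and 614 in CD26, against 86.4 and 123 CPM in Adipocyte (edgeR log2 fold change 2.46, SE 0.32, adjusted p = 0.000546). Twist1 (29.97 and 31.1 in CD26, against 36.6 and 35.4 CPM in Adipocyte) and Zeb2 (1602 and 1364 in CD26, against 923 and 1599.8 CPM in Adipocyte) were not called.

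Immediate early genes, which answer first to a stimulus, had 7 of 25 tested members called higher in CD26 and 1 lower (median log2 fold change 0.16). The number higher was 3 and 2 without CD26 library 1 and 2, and 5 and 5 without Adipocyte library 1 and 2. The nuclear receptor Nr4a2 had 220.0 and 316 in CD26, 65.6 and 42.1 in AdipoqTraced and 5.12 and 7.36 CPM in Adipocyte. It was higher in CD26 than in Adipocyte (edgeR log2 fold change 5.40, SE 0.57, adjusted p = 9.92e-05) and than in AdipoqTraced (edgeR log2 fold change 2.31, adjusted p = 0.032). Its relative Nr4a3 had 218 and 269 in CD26, against 14.01 and 27.8 CPM in Adipocyte (edgeR log2 fold change 3.51, SE 0.53, adjusted p = 0.00146). Jun, a subunit of AP-1, was the member called lower, with 547 and 646 in CD26, against 1201 and 1053 CPM in Adipocyte (edgeR log2 fold change -0.92, SE 0.25, adjusted p = 0.0447, and 0.0505 with mitochondrial genes kept, 0.0748 without a filter on low counts, 0.064 in the older edgeR fit (legacy = TRUE), 0.227 tested against a fold of 1.5, 0.0999 with the replicate number as a block, 0.359 without CD26 library 1, 0.259 without CD26 library 2, 0.176 without Adipocyte library 1 and 0.0675 without Adipocyte library 2). Egr1, a zinc finger factor, had 2320.1 and 2712 in CD26, against 3916 and 3191 CPM in Adipocyte and was not called. Fosl2, a Fos-related subunit of AP-1, had 684 and 770.0 in CD26, against 247 and 205 CPM in Adipocyte (edgeR log2 fold change 1.69, SE 0.27, adjusted p = 0.00247, and 0.0652 without CD26 library 2).

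The endoplasmic reticulum, where collagen is folded, showed 12 of 30 tested genes called higher and 1 lower (median log2 fold change 1.21). The number higher was 4 and 5 without CD26 library 1 and 2, and 4 and 6 without Adipocyte library 1 and 2. Pdia3, a disulfide isomerase, had 1315 and 1154 in CD26, against 281 and 333 CPM in Adipocyte (edgeR log2 fold change 2.01, SE 0.25, adjusted p = 0.000436). Hsp90b1, the chaperone GRP94, had 2467 and 2370.1 in CD26, against 773 and 885 CPM in Adipocyte (edgeR log2 fold change 1.54, SE 0.22, adjusted p = 0.00117). Hspa5, the chaperone BiP, had 475 and 472 in CD26, against 278 and 245 CPM in Adipocyte and was not called (adjusted p = 0.0836), nor were Atf4 (332 and 311 in CD26, against 234 and 202 CPM in Adipocyte) and Xbp1 (26.4 and 77.6 in CD26, against 74.5 and 133 CPM in Adipocyte). Ssr3, a subunit of the translocon-associated complex, had 1423 and 1409 in CD26, against 386 and 449 CPM in Adipocyte (edgeR log2 fold change 1.76, SE 0.24, adjusted p = 0.000771). The member called lower was Sel1l, an adaptor of the degradation of misfolded proteins, which had 21.9 and 47.7 in CD26, against 128 and 111 CPM in Adipocyte (edgeR log2 fold change -1.79, SE 0.48, adjusted p = 0.0378, and 0.0639 without a filter on low counts, 0.0606 in the older edgeR fit (legacy = TRUE), 0.0807 tested against a fold of 1.5, 0.0892 with the replicate number as a block, 0.313 without CD26 library 1, 0.0906 without CD26 library 2, 0.28 without Adipocyte library 1 and 0.165 without Adipocyte library 2).

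Glycolysis and hypoxia genes had no common direction, with 5 of 29 called higher and 4 lower, against 4.54% and 4.22% of all genes tested. The list median was 0.31 (log2 fold change). Each of the 4 fits with a library left out called 1 member higher, and members called lower numbered 1 and 1 without CD26 library 1 and 2, and 1 and 3 without Adipocyte library 1 and 2. Ndrg1, a gene induced by hypoxia and differentiation, had 427 and 665 in CD26, against 30.7 and 41.3 CPM in Adipocyte (edgeR log2 fold change 3.91, SE 0.38, adjusted p = 6.83e-05). Pfkfb3, which makes the activator of phosphofructokinase, had 55.2 and 25.2 in CD26, against 509.7 and 438 CPM in Adipocyte (edgeR log2 fold change -3.55, SE 0.42, adjusted p = 0.000275). Slc2a1, the glucose transporter of most cells, had 164 and 172 in CD26, against 43.7 and 58.1 CPM in Adipocyte (edgeR log2 fold change 1.72, SE 0.37, adjusted p = 0.0139, and 0.109 without CD26 library 1, 0.132 without CD26 library 2, 0.141 without Adipocyte library 1 and 0.0634 without Adipocyte library 2). Slc2a4, the insulin-dependent transporter of fat and muscle, had 0 counts in CD26, against 69.01 and 54.9 CPM in Adipocyte (at least 447-fold lower, adjusted p = 0.00247, and 0.0598 without Adipocyte library 1). Bnip3, a mitochondrial protein induced by hypoxia, had 34.02 and 23.9 in CD26, against 209 and 127 CPM in Adipocyte (edgeR log2 fold change -2.52, SE 0.47, adjusted p = 0.00571, and 0.0793 without CD26 library 1, 0.135 without CD26 library 2 and 0.124 without Adipocyte library 1). The glycolytic enzyme genes Aldoa and Ldha were called lower as well. Aldoa had 193 and 138 in CD26, against 549 and 452 CPM in Adipocyte (edgeR log2 fold change -1.59, SE 0.32, adjusted p = 0.00939, and 0.0863 without CD26 library 1, 0.204 without CD26 library 2 and 0.0802 without Adipocyte library 1). Ldha had 494 and 483 in CD26, against 1083 and 853 CPM in Adipocyte (edgeR log2 fold change -0.99, SE 0.28, adjusted p = 0.0479, and 0.0529 with mitochondrial genes kept, 0.082 without a filter on low counts, 0.0705 in the older edgeR fit (legacy = TRUE), 0.199 tested against a fold of 1.5, 0.0815 with the replicate number as a block, 0.296 without CD26 library 1, 0.373 without CD26 library 2, 0.266 without Adipocyte library 1 and 0.0594 without Adipocyte library 2).

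**Figure D4:**
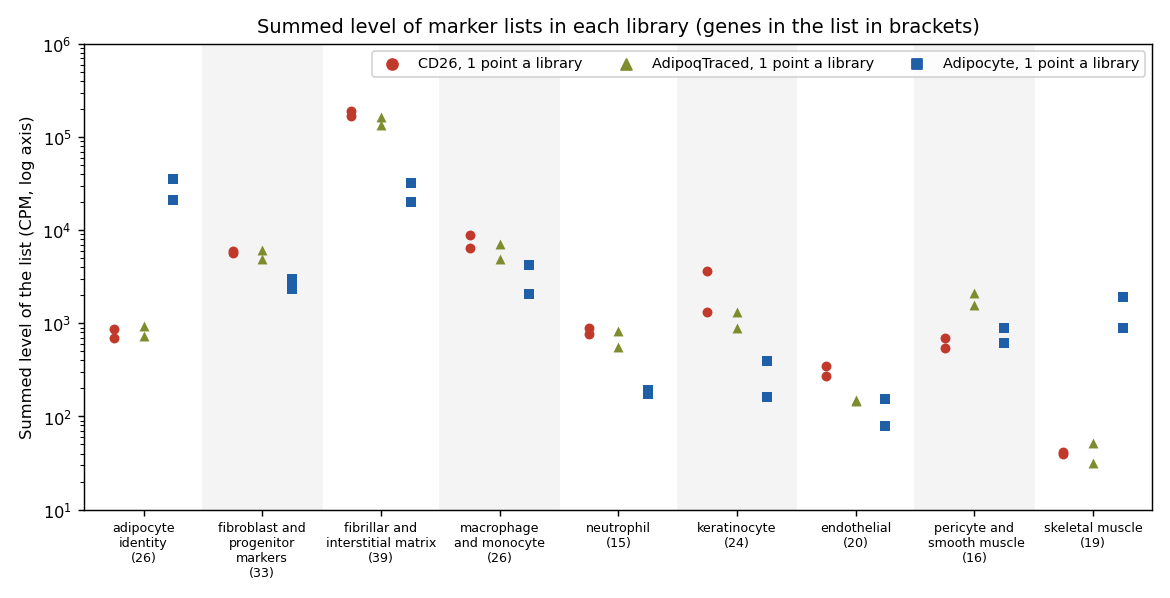
Summed level of 9 marker lists in each library, in CPM on a log axis, 1 point a library, for CD26 (red circles), AdipoqTraced (green triangles) and Adipocyte (blue squares). Fat cell and skeletal muscle sums are higher in Adipocyte, while matrix, immune and keratinocyte sums are higher in CD26.

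Markers of other cell types of skin were measured beside these results. Keratinocyte genes were called higher in CD26 in 10 of 21 tested members and lower in 1, with a summed level of 1323 and 3613 in CD26, 1339 and 892 in AdipoqTraced and 159.9 and 392.2 CPM in Adipocyte. Those called higher numbered 8 and 2 without CD26 library 1 and 2, and 1 and 3 without Adipocyte library 1 and 2. Krt16, a keratin of healing epidermis, had 78.1 and 115 CPM in CD26, against 0 counts in Adipocyte (at least 208-fold higher, adjusted p = 0.00138, and 0.173 with all 14 libraries in the fit). Krt1, a keratin of differentiated epidermis, had 252 and 868 in CD26, against 4.099 and 15.01 CPM in Adipocyte, and CD26 library 2 was the higher (edgeR log2 fold change 5.81, SE 0.85, adjusted p = 0.00116, and 0.114 without Adipocyte library 1 and 0.0571 without Adipocyte library 2). Krt8 and Krt18 had 0 counts in all 4 libraries. The part of keratinocytes in the results was not tested.

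Skeletal muscle genes were called lower in CD26 in 14 of 18 tested members and higher in 0, with a summed level of 41.8 and 39.2 in CD26, 31.4 and 52.1 in AdipoqTraced and 895 and 1907 CPM in Adipocyte. Members called lower numbered 4 and 3 without CD26 library 1 and 2, and 9 and 5 without Adipocyte library 1 and 2. Myl1, a myosin light chain of fast fibres, had 0 counts in CD26, against 131 and 145 CPM in Adipocyte (at least 996-fold lower, adjusted p = 0.000277). Acta1, skeletal actin, had 0.258 and 0.1995 in CD26, against 62.5 and 164 CPM in Adipocyte (edgeR log2 fold change -8.86, SE 1.16, adjusted p = 0.000351). Tnnt3, troponin T of fast fibres, had 1.29 and 1.796 in CD26, against 84.7 and 134 CPM in Adipocyte (edgeR log2 fold change -6.16, SE 0.74, adjusted p = 0.000328).

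Endothelial genes were called in 0 of 19 tested members by edgeR, in 5 at an unadjusted p under 0.05, in up to 2 by edgeR under the alternatives and in 5 by DESeq2, all 5 higher in CD26. Their summed level was 269 and 351 in CD26, against 78.2 and 152 CPM in Adipocyte. The selectin genes Sele and Selp, which are outside this list, were called higher in CD26, with calls that did not hold in every alternative, as given below. Pericyte and smooth muscle genes had 3 of 14 called higher and 2 lower, against 4.54% and 4.22% of all genes tested. The summed level of this list was 537 and 703 in CD26, against 891 and 619.6 CPM in Adipocyte. Mcam, a surface protein of pericytes and vessels, had 17.4 and 21.7 in CD26, 182 and 86.3 in AdipoqTraced and 483 and 225 CPM in Adipocyte, lower in CD26 than in Adipocyte (edgeR log2 fold change -4.17, SE 0.52, adjusted p = 0.000429) and than in AdipoqTraced (edgeR log2 fold change -2.78, adjusted p = 0.0445). The T cell gene Cd3d had 0 counts in these 4 libraries. Sebaceous gland genes were called lower in 2 of 9 tested members and higher in 1, against 4.22% and 4.54% of all genes tested. One of those called lower is Pparg, which fat cells share, and the other is Scd3, with 2.58 and 0.1995 in CD26, against 88.5 and 196 CPM in Adipocyte (edgeR log2 fold change -6.59, SE 0.85, adjusted p = 0.000547).

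Against AdipoqTraced, 64 of 16010 genes were called by edgeR (0.4%), 27 higher in CD26 and 37 lower. The number called was 0 without CD26 library 1 (1844 genes at an unadjusted p under 0.05), 0 without CD26 library 2 (1252 genes), 4 without AdipoqTraced library 1 and 48 without AdipoqTraced library 2. Besides the genes above, Ptx3, a pattern recognition protein of inflamed stroma, had 1207 and 1143 in CD26, 411 and 431 in AdipoqTraced and 1148 and 851 CPM in Adipocyte, and was higher in CD26 than in AdipoqTraced (edgeR log2 fold change 1.48, adjusted p = 0.038). Prg4, lubricin, had 1486 and 1286 in CD26, 416 and 160.5 in AdipoqTraced and 85.1 and 63.7 CPM in Adipocyte (edgeR log2 fold change 2.27, adjusted p = 0.0405 against AdipoqTraced). Chrdl1, a BMP antagonist, had 96.3 and 94.4 in CD26, 12.8 and 16.2 in AdipoqTraced and 209.8 and 192 CPM in Adipocyte (edgeR log2 fold change 2.72, adjusted p = 0.0221 against AdipoqTraced). Ptx3 and Chrdl1 were not called against Adipocyte, while Prg4 was called higher (edgeR log2 fold change 4.23, SE 0.45, adjusted p = 0.000145). Both comparisons share the CD26 libraries, so their values are given side by side and not set against each other.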

How the data were processed

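RNA of sorted wound bed cells was sequenced, and the deposited file holds raw counts per gene, which the authors made from reads aligned to mm10; per the submitters' processing notes the tools were CASAVA 1.8.2, HISAT2 2.1, StringTie 1.3.3b and DESeq2. Of 52636 Ensembl IDs 52403 were matched to symbols and coordinates of GENCODE M21, and 233 were not. The 37 mitochondrial genes were set aside before scaling. The counts as deposited were scaled by TMM and filtered by group, and edgeR 4.0.16 (R 4.3.3) fitted the 6 libraries of CD26, AdipoqTraced and Adipocyte in a robust quasi-likelihood model. Adjusted p-values are Benjamini-Hochberg over all 16010 genes tested, and the SE is the fold change on the log2 scale, without its sign, over the root of the F statistic.

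Members and the 41 gene lists (1018 entries, 1017 matched) were chosen with earlier results of these data known. The genes named are the label genes, the 8 largest rises and falls at 10 CPM or more, the 3 called members of each list with the smallest p, those against their list's direction and the leading genes by counts; other list members were chosen by role after their values were seen. A few of the genes so chosen are not reported here. Counts were also simulated for the 6 libraries (14960 genes), with the same mean in all groups for each gene save for known changes set in CD26. In these data edgeR recovered 24 of 70 genes changed by a log2 fold of 3, 4 of 68 changed by 2 and 0 of 62 changed by 1. It made 28 calls, 0 of them false, while DESeq2 made 176 calls, 90 of them false (51.1%). The real groups differ in more genes, so these rates hold for the simulated setting only.

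The strand setting is not given in the sources used here, so reads of overlapping genes cannot be told apart, which touches 93 of the 230 tested genes named, such as Agpat2 with Egfl7 and Cox4i1 with Emc8. Floors cover counting error only. Same-numbered libraries did not vary together (correlations of deviations -0.0174, -0.017 and -0.0206), so the number was not used in the main design. Alternatives were DESeq2 1.42.0, other scalings and filters, other sets of libraries, thinned counts, the older edgeR fit, a test against a fold of 1.5, a replicate block and leaving out each library.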

Additional observations from a re-analysis of the deposited data

How the results depend on the processing

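Between CD26 and Adipocyte 1403 genes were called. The count was 2487 with DESeq2 1.42.0 (1484 higher and 1003 lower in CD26). In the simulated data 90 of 176 DESeq2 calls were false. Fewer genes were changed there than were called here, so that share cannot be carried over to these calls. Of the 2487 genes, 1361 were called in the same direction in the analysis reported. No gene called there was called in the opposite direction under any alternative. With a library left out it lay between 413 and 720, and under the other alternatives between 1046 and 1917. Scaling by library size alone gave a median over all genes of 0.107, against 0.213 (log2 fold change). Between CD26 and AdipoqTraced 64 genes were called. The count was 493 with DESeq2, 40 without a filter on low counts, 147 with at least 10 CPM in both libraries of a group, 132 with protein-coding genes only, 697 with all 14 libraries in the fit, 6 with legacy = TRUE, 24 against a fold of 1.5 and 6 with the replicate block, and it lay between 0 and 48 with a library left out. The replicate block, run although the numbers do not pair the libraries, gave 1082 calls between CD26 and Adipocyte. Of 186 called genes named in the text, 120 kept their call under every alternative that tested them and 0 changed direction. The log2 fold change of 5 genes that were not called changed sign. For C5ar1 it was 1.22, -0.19 with the replicate block and between -1.90 and 2.14 with a library left out. With a library left out it lay between -0.55 and 0.78 for Ccnd1, between -0.38 and 0.98 for Cebpd, between -1.54 and 0.041 for Myl9 and between -0.10 and 0.70 for Zeb2. The causes were not tested. Counts thinned to the depth of the smallest library gave 1834 calls among 13159 genes, fewer genes than in the analysis reported. The Adipocyte libraries were the smallest and lost few or no counts, so thinning cannot show whether their depth limited the calls.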

Other observations

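The largest rises in CD26 by fitted fold were in genes with 0 counts in both Adipocyte libraries, so that a bound replaces a fold. AdipoqTraced had 60.7 and 118 CPM of Enpp1, 50.9 and 41.5 of Ltbp2, 11.6 and 31.4 of Prokr2 and 11.2 and 7.43 of Plet1. None of these was called between CD26 and AdipoqTraced. Slc1a2, a glutamate transporter, had 126 and 152 CPM in CD26, 52.7 and 162 CPM in AdipoqTraced and 0 in Adipocyte (at least 299-fold higher, edgeR adjusted p = 0.00184, and 0.0532 without Adipocyte library 1 and 0.0529 without Adipocyte library 2). Enpp1, an enzyme that makes pyrophosphate, had 75.7 and 69.03 CPM in CD26 and 0 in Adipocyte (at least 156-fold higher, adjusted p = 0.00304, and 0.0712 without Adipocyte library 1 and 0.069 without Adipocyte library 2). Ltbp2, a protein of elastic microfibrils, had 61.1 and 37.01 CPM in CD26 and 0 in Adipocyte (at least 106-fold higher, adjusted p = 0.00815, and 0.0814 without CD26 library 1, 0.133 without Adipocyte library 1 and 0.13 without Adipocyte library 2). Prokr2, the prokineticin receptor, had 127 and 54.8 CPM in CD26 and 0 in Adipocyte (at least 196-fold higher, adjusted p = 0.00694, and 0.0933 without CD26 library 1, 0.123 without Adipocyte library 1 and 0.119 without Adipocyte library 2). Plet1, a surface protein of epithelial progenitors, had 60.7 and 94.6 CPM in CD26 and 0 in Adipocyte (at least 167-fold higher, adjusted p = 0.00391, and 0.0696 without CD26 library 2, 0.0741 without Adipocyte library 1 and 0.0717 without Adipocyte library 2).

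Both selectins by which vessel walls catch leukocytes were among these genes as well. Sele, E-selectin, had 38.4 and 103 CPM in CD26, 6.05 and 4.46 CPM in AdipoqTraced and 0 in Adipocyte (at least 152-fold higher, adjusted p = 0.00992, and 0.0641 with all 14 libraries in the fit, 0.108 without CD26 library 2, 0.153 without Adipocyte library 1 and 0.151 without Adipocyte library 2). Selp, P-selectin, had 42.8 and 147 CPM in CD26, 0 and 7.81 CPM in AdipoqTraced and 0 in Adipocyte (at least 204-fold higher, adjusted p = 0.0206, and 0.0553 with DESeq2, 0.0501 in the older edgeR fit (legacy = TRUE), 0.0592 without CD26 library 1, 0.215 without CD26 library 2, 0.221 without Adipocyte library 1 and 0.217 without Adipocyte library 2). Krt16, given in the report, completes the 8 largest rises.

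The largest falls were in genes with 0 counts in both CD26 libraries, and 4 of the 8 were major urinary protein genes, a family of lipocalins that carry small lipophilic molecules. Mup17 had 0 counts in CD26, against 2484 and 1181 CPM in Adipocyte (at least 13216-fold lower, adjusted p = 3.44e-06). Mup13 had 0 counts in CD26, against 688 and 398 CPM in Adipocyte (at least 3915-fold lower, adjusted p = 0.000111). Mup11 and Mup7 were also at 0 in CD26, against 260.3 and 121 CPM (Mup11, at least 1376-fold lower) and 243 and 82.1 CPM (Mup7, at least 1171-fold lower) in Adipocyte. These genes are near-identical copies, so which of them the reads came from is uncertain. Slc36a2, an amino acid transporter of fat cells, had 0 counts in CD26, against 193 and 132 CPM in Adipocyte (at least 1171-fold lower, adjusted p = 8.09e-05). The other 3 of the 8 were Acvr1c, Retn and Lep. Car3, a carbonic anhydrase of fat and muscle, had 3.62 and 5.19 in CD26, 55.3 and 36.5 in AdipoqTraced and 22724 and 12778 CPM in Adipocyte (CD26 against Adipocyte, edgeR log2 fold change -11.99, SE 0.46, adjusted p = 7.57e-08).

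A few genes took large shares of the counts. In CD26 the leading gene outside the mitochondrial genome was Col1a1 (3.917% and 4.253%), followed by Col3a1 (3.423% and 3.559%). In Adipocyte it was AY036118, an annotated non-coding gene, with 8.706% and 6.536%, followed by Scd1. AY036118 overlaps the ribosomal RNA gene CT010467.1, and its counts are part of the nuclear ribosomal RNA share given in the report. The 100 leading genes of each library took 33.55% and 34.69% in CD26, against 37.34% and 31.31% in Adipocyte.

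Some genes differed by a larger ratio between the 2 CD26 libraries than between the group means. Itgam, the integrin CD11b of myeloid cells, had 928 and 28.9 in CD26, 227 and 5.48 in AdipoqTraced and 47.1 and 5.66 CPM in Adipocyte. C5ar1, the complement receptor of myeloid cells, had 323 and 19.7 in CD26, 234 and 11.6 in AdipoqTraced and 57.4 and 88.6 CPM in Adipocyte. Fos had 426 and 12.97 in CD26, against 593 and 487 CPM in Adipocyte, and Zfp36, which destabilises cytokine transcripts, had 428 and 3289 in CD26, against 6879 and 5925 CPM in Adipocyte. CD26 library 1 was the higher in the first 3 of these genes and CD26 library 2 in Zfp36. None of the 4 was called between CD26 and Adipocyte, and they were chosen after their values were seen.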
